A study of Mus musculus with 8 samples.

Results

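Glycogenolysis and glycolysis were examined in the mouse esophagus through 10 genes taken by symbol from the 32849 symbols of the count table, namely Pygm, Phkg1, Hk2, Pfkm, Aldoa, Gapdh, Pgam2, Eno3, Pkm and Ldha. The symbols were chosen as enzymes of glycogen breakdown and glycolysis, most of them the forms used by muscle. All 10 were found and all 10 passed the filter on low counts. RNA with poly(A) tails was sequenced from esophagi of healthy mice, 4 labelled MGL KO and 4 labelled MGL WT. MGL, monoacylglycerol lipase, breaks down the endocannabinoid 2-arachidonoylglycerol, and its gene Mgll was deleted in the whole animal and not in one cell type. The knockout mice were bred together with their WT littermates, and neither genotype received a drug or a disease-inducing transgene in this experiment. The labels do not name the animal behind each library, so the p-values below measure the spread between these libraries.

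Skeletal muscle stores glucose as glycogen. On contraction, phosphorylase kinase switches on glycogen phosphorylase, which frees glucose 1-phosphate, and glycolysis then carries glucose phosphate to pyruvate and, through lactate dehydrogenase, to lactate. Fast fibers depend most on this route and carry their own forms of many of its enzymes. The muscle wall of the mouse esophagus is striated along most of its length, so that such enzymes can be abundant there beside the forms of the squamous epithelium.

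The 10 genes lie on 7 chromosomes. In GRCm39, Pygm is at chr19:6430569-6448538 on the forward strand, Phkg1 at chr5:129891125-129927390 on the reverse strand, Pfkm at chr15:97990451-98031417 on the forward strand and Pkm at chr9:59563364-59586663 on the forward strand. Aldoa (chr7:126393822-126399923, reverse) and Ldha (chr7:46490899-46505061, forward) share a chromosome, as do Pgam2 (chr11:5751636-5753760, reverse) and Eno3 (chr11:70546593-70553340, forward). Hk2 (chr6:82699740-82751469, reverse) and Gapdh (chr6:125135289-125143518, reverse) lie on the chromosome of Mgll, at 5.9 and 36.33 Mb from it.

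The members moved together from library to library, as the values below show, so the bases next to their start sites were read from GRCm39. Shown as examples are Phkg1 and Gapdh, whose 180 upstream bases hold no annotated exon, and a short window of Pgam2. Each sequence runs 5′ to 3′ on the gene's own strand. Capitals mark matches to the E-box CANNTG, the letters bound by myogenic factors among others, to the MEF2 motif, named for a family of muscle transcription factors, and to the core ACGTG or GCGTG of hypoxia response elements, each sought on both strands. The E-box and the core can share letters. The first 2 are the 180 bases before the first base of the canonical transcript, and the third is the 30-base window of the only MEF2 match among the members.
Phkg1, chr5:129908007-129908186, reverse strand: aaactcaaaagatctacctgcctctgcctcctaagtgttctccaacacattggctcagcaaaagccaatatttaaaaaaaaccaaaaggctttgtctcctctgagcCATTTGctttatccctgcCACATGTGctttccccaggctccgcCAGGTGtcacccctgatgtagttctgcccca
Gapdh, chr6:125142737-125142916, reverse strand: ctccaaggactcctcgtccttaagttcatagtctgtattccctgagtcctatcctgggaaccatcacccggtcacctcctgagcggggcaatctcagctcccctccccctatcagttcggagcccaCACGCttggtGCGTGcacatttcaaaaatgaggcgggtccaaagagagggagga
Pgam2, chr11:5753857-5753886, reverse strand: ttttgtgagaCTATTTTTAAgttcagctcc

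Phkg1 held E-boxes and no hypoxia core, as did Pgam2 and Pkm over the 300 bases searched, and Gapdh and Hk2 held hypoxia cores and no E-box. The other 5 members held both. The MEF2 match of Pgam2 spanned bases -117 to -108, counted back from the base before the start. Over the 250 bases before and 50 bases from the start, an E-box was present in 8 of the 10 members and in 70.15% of 19348 promoters of protein-coding genes, and the hypoxia core in 7 of 10 and in 51.04%. A MEF2 match was present in 1 of 10 members and in 2.52% of the promoters, and the letters TATAAA in 2 of 10 and in 11.79%. Apart from Phkg1 and Gapdh, each member had annotated exon bases among the 180 before its start. These ran from 17 bases for Hk2 to all 180 for Aldoa, Eno3, Pkm and, in exons of Dbnl, Pgam2. These are matches of letters, and binding was not measured.

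The libraries held between 13479069 and 17090152 counts, and 14864 genes were compared. Mgll was at 13.7 ± 1.54 CPM, counts scaled to the TMM-normalized library size (SD, n = 4), in MGL KO and at 81.2 ± 9.97 CPM (SD, n = 4) in WT esophagi, with an adjusted p of 0.000133 (edgeR's quasi-likelihood test, Benjamini-Hochberg). The tissue held its muscle markers: 18 of 19 contractile skeletal muscle genes reached at least 100 CPM in every library, with Acta1 the most abundant, and the exception was Tnnc2, listed at 1.10 to 3.52 CPM. The annotation and the use of strand in counting are not stated, so that value may not be the level of the message. The muscle genes summed to between 51759 CPM in MGL KO replicate 4 and 116918 CPM in MGL KO replicate 2, and the second highest sum was 101761 CPM in WT replicate 3. Squamous genes, led by Krt13, were lowest in the same pair of libraries, at 4971 CPM in MGL KO replicate 2 and 5959 CPM in WT replicate 3 against 11083 to 20249 CPM in the others. MGL KO replicate 4 also held airway ciliated genes, led by Foxj1, at a sum of 878.1 CPM against 12.5 to 25.2 CPM elsewhere. In bulk tissue, fewer cells of a type and less RNA per cell cannot be told apart.

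The enzymes of the pathway were among the most abundant messages of the esophagus in both genotypes. Together, the 10 genes took 2.73% ± 0.79 of all counts in MGL KO (SD, n = 4) and 2.85% ± 0.47 in WT esophagi (SD, n = 4), with libraries from 1.92% to 3.81%. Per kb of canonical transcript, Aldoa (aldolase, which splits fructose 1,6-bisphosphate) was at 4880 ± 2200.1 CPM per kb (SD over 8 libraries) and ranked 2 of 13907 protein-coding genes tested. Gapdh (glyceraldehyde-3-phosphate dehydrogenase, often used as a reference gene) was at 4498 ± 1641 CPM per kb and ranked 4. Pygm (muscle glycogen phosphorylase) at 1828 ± 312 CPM per kb and Eno3 (muscle enolase) at 1695 ± 578 CPM per kb ranked 16 and 17. Ldha (lactate dehydrogenase A), Pgam2 (muscle phosphoglycerate mutase) and Pkm (pyruvate kinase) followed at 1077 ± 301, 750.7 ± 351 and 692 ± 164 CPM per kb.

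The other members were lower. Pfkm, muscle phosphofructokinase, which catalyses the committed step of glycolysis, was at 447 ± 94.1 CPM per kb. Hk2, the hexokinase of insulin-responsive tissues, was at 74.0 ± 14.1 CPM per kb. Phkg1, the catalytic subunit of muscle phosphorylase kinase, was lowest at 39.5 ± 8.38 CPM per kb and ranked 1388. Between neighbours in this order, the ranges over the 8 libraries overlapped except at 2 places. The lowest library of Gapdh, at 2658 CPM per kb, lay above the highest of Pygm, at 2217 CPM per kb, and the lowest of Pfkm, at 304.3 CPM per kb, lay above the highest of Hk2, at 99.2 CPM per kb.

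Where the forms of an enzyme were compared, the member gave most of the message. No share was taken for Gapdh, whose other form Gapdhs was at 2.14 ± 1.38 CPM in MGL KO and 3.00 ± 0.38 CPM in WT (SD, n = 4 each). Pygm made up 98.8% ± 1.11 of glycogen phosphorylase per kb in MGL KO and 99.2% ± 0.39 in WT (SD, n = 4 each), beside Pygb, the brain form, at 11.6 CPM per kb and Pygl, the liver form, at 4.44 CPM per kb over all libraries. In their lowest libraries, Aldoa made up 99.90% of aldolase and Pkm 99.5% of pyruvate kinase. Eno3 made up 91.8% ± 3.22 and 92.6% ± 2.66 of enolase in MGL KO and WT, and the remainder was mostly Eno1, the ubiquitous form, at 126.4 CPM per kb. Pfkm gave 92.3% ± 3.23 and 92.7% ± 2.42 of phosphofructokinase, with Pfkl and Pfkp at 16.3 and 17.7 CPM per kb.

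Hexokinase and phosphorylase kinase were the least exclusive. Hk2 gave 73.8% ± 9.81 of hexokinase in MGL KO and 72.9% ± 5.36 in WT (SD, n = 4 each), and Hk1, the form of most tissues, was at 25.3 CPM per kb. Phkg1 gave 80.3% ± 6.14 and 79.3% ± 3.35 of the catalytic subunits, and Phkg2, the liver and testis form, was at 9.68 CPM per kb. Pgam2 made up 96.7% ± 2.04 of phosphoglycerate mutase in MGL KO and 97.9% ± 0.85 in WT, and Ldha 94.5% ± 2.22 and 95.9% ± 0.19 of lactate dehydrogenase, with Ldhb, the heart form, at 52.7 CPM per kb. The genotypes overlapped in all 9 shares. All 9 shares were lowest in MGL KO replicate 4, the library with the ciliated markers and the lowest muscle sum, where Hk2 fell to 61.1% of hexokinase. The part of those markers in the shares was not tested.

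**Figure D1:**
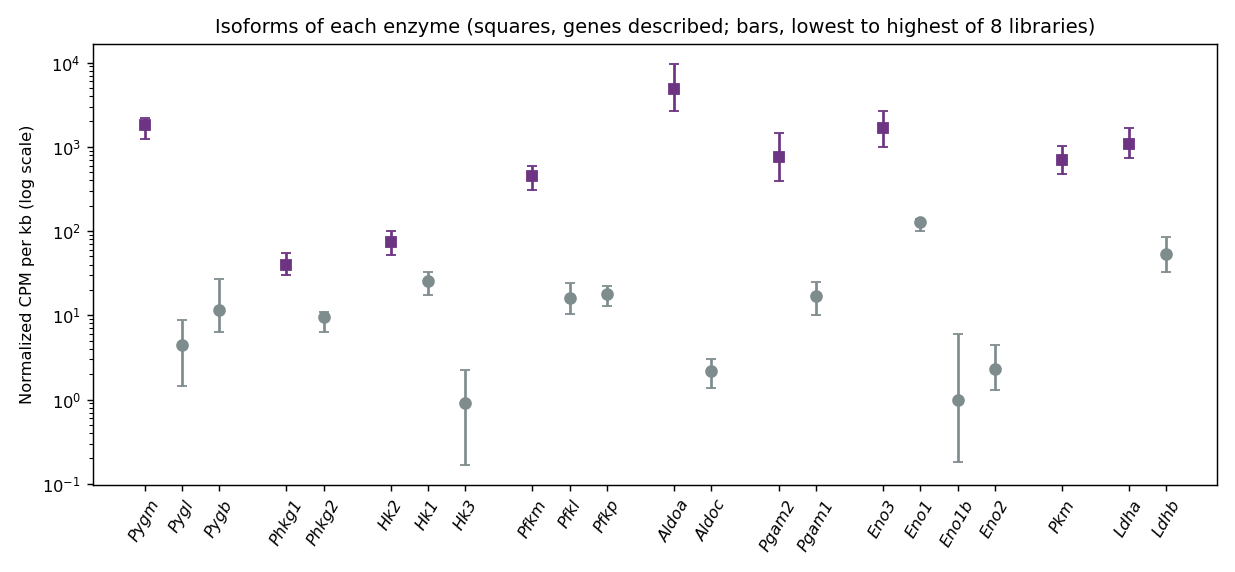
Level of each isoform in normalized CPM per kb of canonical transcript, on a log scale, grouped by enzyme. Squares mark the 9 genes described here that were compared with other forms of their enzyme. Circles mark the other isoforms above 0 in every library, and bars run from the lowest to the highest of 8 libraries. Each square lies above the other forms of its enzyme, by the most for Aldoa (4880 against 2.17 CPM per kb for Aldoc) and by the least for Hk2 (74.0 against 25.3 CPM per kb for Hk1).

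No difference between MGL KO and WT esophagi was detected for any of the 10 genes. In all, 7 of the 14864 genes tested passed an adjusted p of 0.05 (edgeR's quasi-likelihood test, Benjamini-Hochberg), which is 0.0471% of them, and 0 of the 10 members did so. The adjusted p of the members lay between 0.863 and 0.998, and 0 of them had an unadjusted p under 0.05, against 1285 of all genes tested. All 4 MGL KO libraries lay on one side of all 4 WT libraries for 895 genes, or 6.02%, and for 0 of the 10 members. The median log2 fold change (MGL KO minus WT) was 0.02 over the members and 0.02 over all genes tested, with 5 members above and 5 below 0. DESeq2, the exact test and limma-voom also called 0 of the 10.

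Pygm, the enzyme that cuts glycogen, was at 5153, 6480, 5184 and 3608 CPM in MGL KO replicates 1 to 4 and at 4756, 5660, 6332 and 5571 CPM in WT replicates 1 to 4. On this TMM scale the highest and the lowest library were both MGL KO, and the WT libraries lay between them. The TMM factors were 0.82 in MGL KO replicate 2, 0.94 in WT replicate 3 and 1.11 in MGL KO replicate 4. A factor below 1 raises all values of a library relative to library size alone, so the order of the highest libraries depends on the scaling. The log2 fold change was -0.13 ± 0.21 (SE), with a 95% interval of -0.59 to 0.34 and an adjusted p of 0.863 in edgeR's quasi-likelihood test. Phkg1, whose product activates phosphorylase, was at 83.7, 119.7, 103.8 and 73.5 CPM in MGL KO and at 81.2, 90.1, 133.5 and 90.0 CPM in WT. WT replicate 3 was highest here, the only member for which MGL KO replicate 2 was not highest in TMM-normalized CPM. Its log2 fold change was -0.05 ± 0.20, with an interval of -0.50 to 0.40.

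Among the enzymes of the first stage of glycolysis, Hk2 was at 616.6, 773, 561.2 and 407.6 CPM in MGL KO and at 476.4, 534.5, 613.9 and 631.3 CPM in WT libraries. Its log2 fold change was 0.06 ± 0.20, with an interval of -0.38 to 0.51. Hk2 lies on the chromosome of the deleted gene, and its level was not separated between the genotypes. Pfkm was at 1807, 2354, 1760 and 1216 CPM in MGL KO and at 1399, 1776, 2223 and 1758 CPM in WT libraries, a log2 fold change of -0.0038 ± 0.22. Aldoa was at 6103, 14530.1, 6392 and 4066 CPM in MGL KO and at 5369, 6374, 9895 and 6256 CPM in WT libraries. Aldoa thus spanned 3.57-fold over the 8 libraries, and both extremes were MGL KO. Its log2 fold change was 0.16 ± 0.39, and the interval of -0.73 to 1.04 left room for a fold of 0.605 to 2.05.

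In the later stage, where ATP is formed, Gapdh was at 5536, 11026, 5548 and 3774 CPM in MGL KO and at 4852, 5819, 8683 and 5863 CPM in WT libraries. Gapdh spanned 2.92-fold, and its log2 fold change of 0.04 ± 0.34 had an interval of -0.73 to 0.80. Pgam2 was at 501.2, 1275, 589.1 and 338.7 CPM in MGL KO and at 442, 557.3, 939.1 and 582.7 CPM in WT libraries. It had the widest span of the members, 3.76-fold, and a log2 fold change of 0.10 ± 0.40 (interval -0.81 to 1.01). Eno3 was at 2759, 4609, 2504 and 1719.9 CPM in MGL KO and at 2138, 2745, 4317 and 2821 CPM in WT libraries, with a log2 fold change of -0.05 ± 0.32.

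Pyruvate and lactate are made by the last enzymes. Pkm was at 1510.2, 2477, 1611 and 1171 CPM in MGL KO and at 1404, 1638, 2037 and 1703 CPM in WT libraries, a log2 fold change of -0.0028 ± 0.24. Ldha was at 1515, 2686, 1612 and 1174 CPM in MGL KO and at 1315, 1591, 2089 and 1697 CPM in WT libraries, a log2 fold change of 0.06 ± 0.26. For each of the 2, the WT libraries fell inside the MGL KO range. Over the 10 members, exact two-sided permutation tests of log2 CPM, which cannot go below 0.0286 with 4 libraries against 4, gave p from 0.543 to 1. The intervals were narrowest for Pygm, Phkg1 and Hk2, where changes beyond 1.43-fold upward or below a fold of 0.663 lay outside, and widest for Pgam2 and Aldoa.

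**Figure D2:**
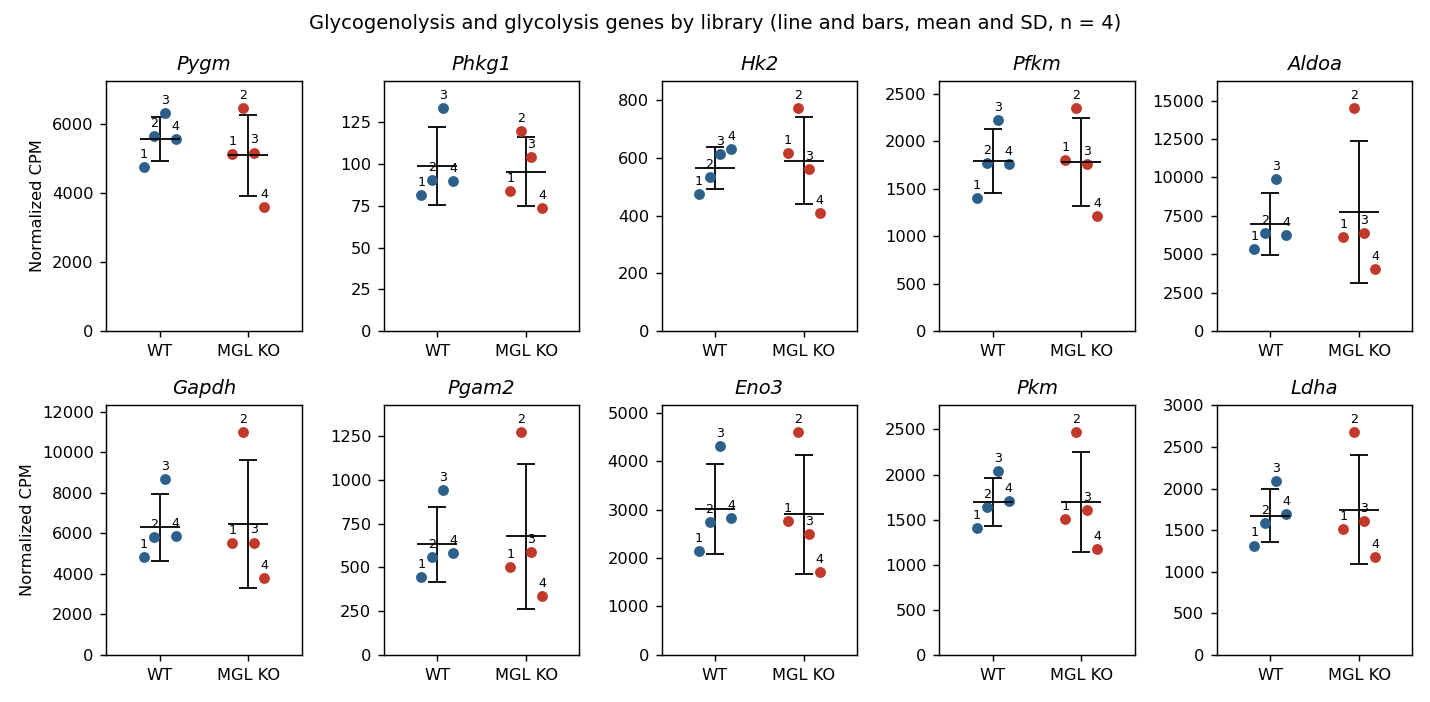
Normalized CPM of each gene (vertical axis, from 0) in the 4 WT libraries (blue) and the 4 MGL KO libraries (red), numbered by replicate, with the mean and SD of each group. The groups overlap in all 10 panels. MGL KO replicate 2 is highest in 9 panels and MGL KO replicate 4 lowest in 10.

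The balance between higher and lower values rested on single libraries. Without MGL KO replicate 2, all 10 members had log2 fold changes below 0, with a median of -0.25 and a lowest adjusted p of 0.674 (edgeR's quasi-likelihood test). Without MGL KO replicate 4, 0 of the 10 were below 0, with a median of 0.17 and a lowest adjusted p of 0.648. Without WT replicate 3, 1 was below 0 and the median was 0.16. No direction can therefore be given for the group. With library size alone as the scaling, 9 of the 10 were below 0, with a median of -0.06 while that of all genes was -0.03.

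**Figure D3:**
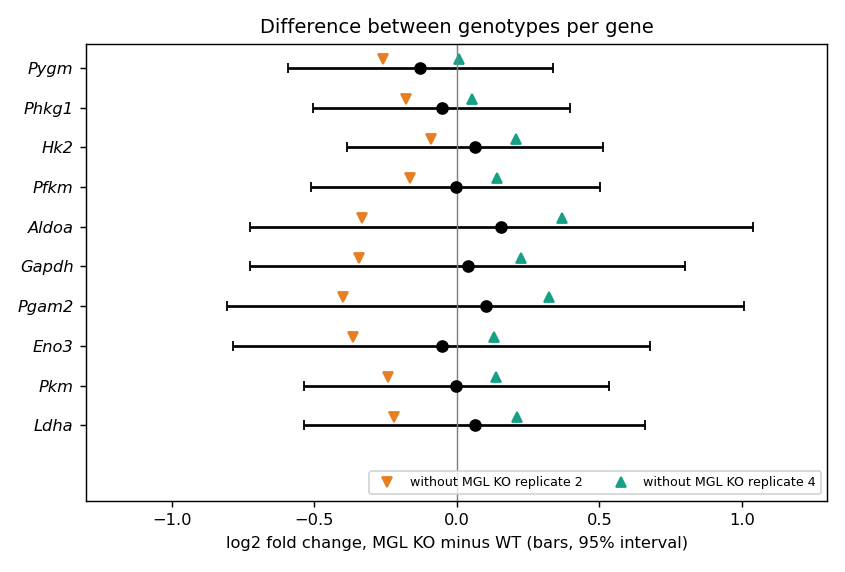
Log2 fold change of each gene, MGL KO minus WT (horizontal axis), with its 95% interval from edgeR's quasi-likelihood test over 8 libraries (black) and the value without MGL KO replicate 2 (orange) or replicate 4 (green). All 10 intervals include 0, the orange values are all below 0 and the green values all above it.

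The members rose and fell together from library to library. Pearson's r of log2 CPM over the 8 libraries, which share normalization and tissue makeup, was between 0.71 (Phkg1 and Hk2) and 0.99 (Aldoa and Gapdh) over the 45 pairs of members, with a median of 0.93. Without MGL KO replicates 2 and 4 it was between 0.40 and 0.99 with a median of 0.93. The SD of log2 CPM over the 8 libraries was 0.60 for Pgam2, 0.56 for Aldoa, 0.48 for Gapdh and Eno3, 0.37 for Ldha and 0.33 for Pkm. It was 0.31 for Pfkm, 0.29 for Phkg1, 0.28 for Hk2 and 0.27 for Pygm. The members thus differed in how far they swung. In TMM-normalized CPM, MGL KO replicate 4 was lowest for all 10 and MGL KO replicate 2 highest for all but Phkg1. With library size alone as the scaling, the SE of each member's log2 fold change was lower, such as 0.12 against 0.21 for Pygm and 0.29 against 0.39 for Aldoa.

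The genes most like each member over the 8 libraries included several genes of fast muscle. Among all genes tested, Gapdh and Aldoa were each nearest to Tnni2, fast troponin I (r = 0.999 and 0.997), and Eno3 was nearest to Mylpf, a fast myosin light chain (r = 0.996). Pygm was nearest to Myh1, a fast myosin heavy chain (r = 0.992), followed by Cpped1 and Myoz3. Pgam2 was nearest to Gapdh (r = 0.994), Ldha to Pkm (r = 0.994) and Pkm to Gpi1, glucose-6-phosphate isomerase (r = 0.996). Pfkm was nearest to Lrrc20 (r = 0.991), Hk2 to Tmem38b (r = 0.981) and Phkg1 to Med9 (r = 0.968). Without MGL KO replicates 2 and 4, these r were between 0.92 for Hk2 and Tmem38b and 0.998 for Gapdh and Tnni2. Over the 8 libraries, values of similar size also occurred below 0. The lowest r of a member with any gene tested lay between -0.977 for Phkg1 and -0.993 for Pfkm.

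The contractile muscle genes moved over the same libraries. Their mean log2 CPM was 10.65, 11.18, 10.74 and 10.15 in MGL KO replicates 1 to 4 and 10.45, 10.71, 11.13 and 10.88 in WT replicates 1 to 4, with an SD of 0.34 over all 8. When this mean was subtracted, the SD of the members fell to 0.08 for Pfkm, 0.09 for Pkm, 0.11 for Pygm and 0.12 for Ldha, and to 0.28 for Aldoa and 0.30 for Pgam2. MGL KO and WT libraries still overlapped for all 10 genes. The difference of the means (MGL KO minus WT) was largest for Hk2, at 0.15 on the log2 scale, with an exact two-sided permutation p of 0.171, and lowest for Pygm, at -0.04. With the muscle level as a covariate, 0 of 10 members passed the test, 9 were above 0 with a median of 0.10, and the lowest adjusted p was 0.456, for Ldha (edgeR's quasi-likelihood test). The 19 genes of that level include Myh4, with a log2 fold change of -1.33 ± 0.41 (SE), and Tnnc2, listed at 1.10 to 3.52 CPM. Their part in these shifts above 0 was not tested.

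**Figure D4:**
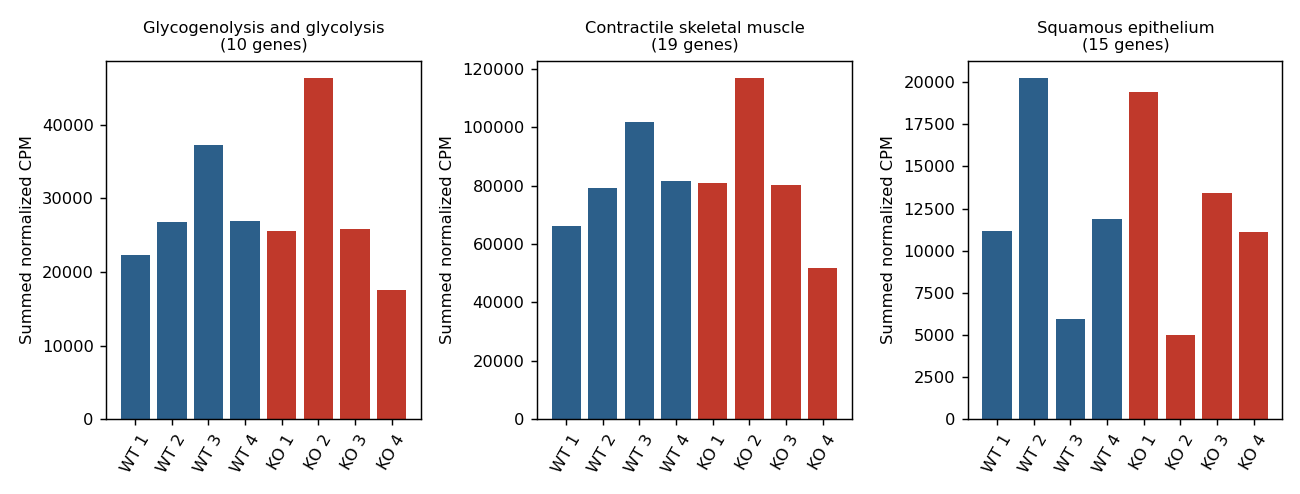
Summed normalized CPM (vertical axis, from 0) of the glycogenolysis and glycolysis genes, of contractile skeletal muscle genes and of squamous epithelium genes in each of the 8 libraries (blue, WT; red, MGL KO). MGL KO replicate 2 and WT replicate 3 are highest for the first and second group and lowest for squamous epithelium, and MGL KO replicate 4 is lowest for the first and second group.

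How far a member swung in these libraries ran with its transcript length, a relation looked for after the values had been seen. In MGL KO replicate 2, Pgam2 (0.87 kb) and Aldoa (1.51 kb) lay 1.08 above their mean log2 CPM of all libraries, Gapdh (1.42 kb) 0.86 and Eno3 (1.74 kb) 0.71, whereas Pygm (2.92 kb) lay 0.30 and Hk2 (7.80 kb) 0.45 above. Over the 10 members, r between log2 length and this deviation was -0.76 in MGL KO replicate 2 and -0.84 in WT replicate 3, and it was between 0.33 and 0.87 in the other 6 libraries. The deviations of 1 gene sum to 0 over the libraries, so these values are not independent. Over all genes at 100 CPM or more, the median deviation in MGL KO replicate 2 was 0.41 for 82 genes under 1 kb and 0.10 for 746 genes over 4 kb, and in WT replicate 3 it was 0.18 and 0.0095. Outside the members, r was -0.38 in both libraries over the 19 contractile muscle genes, -0.21 and -0.14 over the genes at 100 CPM or more, and -0.06 and -0.11 over all genes tested. Over the genes at 100 CPM or more, r was as large or larger in the other direction in MGL KO replicate 3 (0.22) and WT replicate 4 (0.28). Over 14 squamous genes it had the opposite sign, 0.32 and 0.41. The part of transcript length in the members' spread was not tested.

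**Figure D5:**
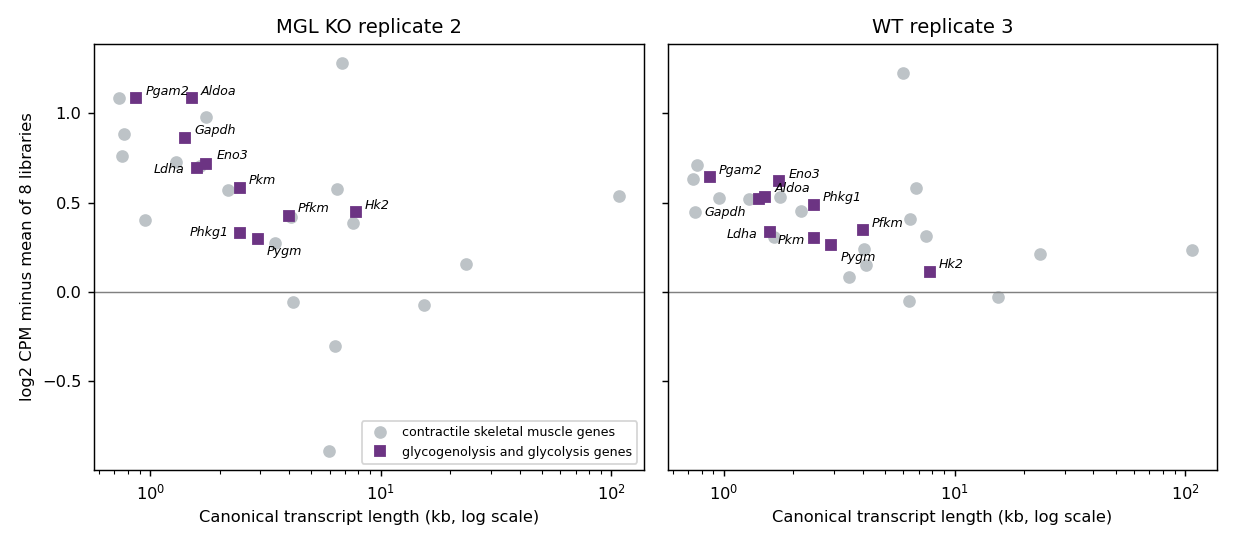
Canonical transcript length in kb (log scale) against the deviation of log2 CPM from the gene's mean over 8 libraries, in MGL KO replicate 2 and WT replicate 3. Squares are the glycogenolysis and glycolysis genes and circles the contractile skeletal muscle genes. The short Pgam2 lies at 1.08 in MGL KO replicate 2 and the long Hk2 at 0.45, and Hk2 is the lowest of the squares in WT replicate 3.

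The rest of the pathway was read from lists of genes chosen by function. None of 70 further genes tested in 3 pathway lists (80 listed) passed the test in edgeR's quasi-likelihood fit, and DESeq2 called 2 of them, or 2.86%, against 0.935% of all genes it tested. An unadjusted p under 0.05 was given to 12 of the 70, or 17.1%, against 8.65% of all genes. All MGL KO libraries lay on one side of all WT libraries for 5 of the 70, or 7.14%, near the 6.02% of all genes. The median log2 fold change was 0.04, with 40 genes above 0 and 30 below.

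Glycogen metabolism outside Pygm and Phkg1 was covered by 25 tested genes of 29 listed, of which 13 were above and 12 below 0 (median 0.01) and 0 passed the test. Ppp1r3c, a subunit that targets protein phosphatase 1 to glycogen and favours its synthesis, was at 173, 314.9, 252.4 and 145.1 CPM in MGL KO and at 91.2, 138.2, 103.3 and 127.1 CPM in WT libraries. All MGL KO libraries were above all WT libraries, by a log2 fold change of 0.94 ± 0.25 with an adjusted p of 0.464 in edgeR's quasi-likelihood test and 0.0429 in DESeq2. Phka2, the regulatory subunit of liver phosphorylase kinase, was at 13.3, 10.9, 16.6 and 15.5 CPM in MGL KO and at 23.3, 21.5, 21.9 and 23.9 CPM in WT libraries. Its log2 fold change was -0.68 ± 0.15, with an adjusted p of 0.302 in edgeR and 0.00335 in DESeq2. Phka1, its muscle counterpart, was at 192.1 ± 40.0 CPM in MGL KO and 211 ± 39.8 CPM in WT, and Phkb, the shared subunit, at 137.9 ± 33.7 and 136.7 ± 15.6 CPM (SD, n = 4 each), with overlap of the groups.

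The glycolytic steps that none of the 10 genes covers also overlapped between the genotypes. Gpi1 was at 807.4 ± 209 CPM in MGL KO and 822.2 ± 100.4 CPM in WT, Tpi1, triosephosphate isomerase, at 936.7 ± 351 and 956 ± 198 CPM, and Pgk1, phosphoglycerate kinase, at 446.3 ± 138 and 402.4 ± 49.7 CPM (SD, n = 4 each). Of 17 other glycolytic genes tested of 22 listed, 10 were above and 7 below 0 (median 0.15) and 0 passed. Pgam1, the form of phosphoglycerate mutase outside muscle, was at 36.3 ± 6.36 CPM in MGL KO and 24.8 ± 4.79 CPM in WT without overlap, a log2 fold change of 0.55 ± 0.18 with an adjusted p of 0.503 (edgeR's quasi-likelihood test). Its level per kb was 17.0 CPM per kb beside 750.7 CPM per kb for Pgam2.

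Of 28 tested genes of glucose uptake, lactate transport and control of the pathway (29 listed), 17 were above and 11 below 0 (median 0.06) and 0 passed. Pfkfb3, which makes the activator fructose 2,6-bisphosphate, was at 30.1, 41.7, 42.2 and 55.5 CPM in MGL KO and at 78.0, 68.6, 58.8 and 67.1 CPM in WT libraries. Each MGL KO library was below each WT library, with a log2 fold change of -0.68 ± 0.18 and an adjusted p of 0.433 (edgeR's quasi-likelihood test). Adpgk, ADP-dependent glucokinase, was also lower in each MGL KO library (23.5 ± 2.48 against 31.4 ± 4.51 CPM), with an adjusted p of 0.499 in the same test. Slc2a4, the insulin-responsive glucose transporter, was at 380 ± 105 CPM in MGL KO and 353.1 ± 66.7 CPM in WT (SD, n = 4 each), with overlap. Pdk4, a kinase that closes the entry of pyruvate into mitochondria and the most abundant gene of this list by the mean of all 8 libraries, was at 278, 856.9, 789.5 and 427.5 CPM in MGL KO and at 205.2, 196.5, 311 and 332.5 CPM in WT libraries, which overlapped, with a log2 fold change of 1.17 ± 0.36 and an adjusted p of 0.485.

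Genes of the hypoxia response, several of which share control elements with glycolytic enzymes, were 10 above and 4 below 0 of 14 tested, and 0 passed (median 0.27). MGL KO replicate 2 was highest in this list, with a sum of 1390 CPM against 935 to 1031 CPM in the other MGL KO libraries and 869 to 1046 CPM in WT libraries. Outside MGL KO replicate 2, the sums of the genotypes thus overlapped. In MGL KO replicate 2, Ero1a, an oxidase of the endoplasmic reticulum named after its values were seen, was at 119.6 CPM against 13.9 to 15.5 CPM in the other MGL KO libraries. MGL KO and WT libraries did not overlap for 3 of the 14, or 21.4%, against 6.02% of all genes. P4ha1 and P4ha2, subunits of collagen prolyl hydroxylase, were higher in each MGL KO library, at 89.2 ± 8.96 against 70.8 ± 4.63 CPM and 49.6 ± 2.44 against 33.7 ± 3.45 CPM, with adjusted p of 0.478 and 0.212 (edgeR's quasi-likelihood test). Kdm3a, a histone demethylase, was lower in each MGL KO library at 32.8 ± 6.0 against 44.9 ± 3.96 CPM, with an adjusted p of 0.503 in that test. None of these genes whose libraries did not overlap passed the adjusted threshold in edgeR's quasi-likelihood test.

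The fiber and tissue markers gave the setting of these values. Of 19 contractile muscle genes, 9 were above and 10 below 0 (median -0.01), and 0 passed. Of 9 slow and oxidative fiber genes tested, led by Myl3, 8 were above 0 (median 0.62, summed 4505 to 10444 CPM in MGL KO and 4393 to 7389 CPM in WT), and the slow light chain Myl2 did not pass the filter. The slow myosin Myh7 was far below that sum, at 1.06 to 16.6 CPM over the 8 libraries. Myh4, the myosin of the fastest fibers, named after its values were seen, was at 521.1, 835.6, 2050.5 and 812.8 CPM in MGL KO and at 1914, 2354, 3618 and 2758 CPM in WT libraries. Its log2 fold change was -1.33 ± 0.41, with an adjusted p of 0.485 (edgeR's quasi-likelihood test), while the other 18 contractile genes lay between -0.21 and 0.34. Smooth muscle genes (led by Des) were above 0 for 7 of 10, squamous genes for 9 of 15, adipocyte genes (led by Lpl) for 9 of 10, airway ciliated genes for 6 of 7 tested (median 3.46, with the sum of 878.1 CPM in MGL KO replicate 4 against at most 25.2 CPM elsewhere) and Y-linked genes (led by Ddx3y) for 2 of 4, with 0 passing in each list. Adipocyte genes summed to 1264 to 1846 CPM in MGL KO and 1115 to 1584 CPM in WT, smooth muscle genes to 6676 to 14217 and 6720 to 10749 CPM, and Y-linked genes to 185.6 to 223.7 and 193.8 to 211.1 CPM. Des, which striated muscle also expresses, gave 4674 to 11885 CPM of the smooth muscle sum. The adipocyte sum was mostly Lpl and Plin4, whereas the more specific Adipoq was at 9.86, 2.80, 36.6 and 57.6 CPM in MGL KO and at 51.7, 11.6, 0.85 and 18.8 CPM in WT libraries, lowest in MGL KO replicate 2 and WT replicate 3. Their part in the values of the 10 genes was not tested.

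Some members share their place with other genes. All exon bases of Pgam2 lie within exons of Dbnl on the opposite strand, 41.65% of those of Gapdh within Iffo1, and 29.81% of those of Phkg1 within Sumf2. The use of strand in counting is not stated, so reads of these pairs could be split or lost. Dbnl held between 502 and 1256 counts, Iffo1 between 399 and 909, and Sumf2 between 170 and 256, against at least 6027 for Pgam2, 67154 for Gapdh and 1307 for Phkg1. Aldoa shares 43.14% of its exon bases with Gm57854 on the same strand, Pkm 23.53% with Gm49759 and Pfkm 20.61% with Gm26513. On the opposite strand, Eno3 shares 18.63% with Gm12319 and Ldha 10.07% with Gm39011. The levels of these members carry that uncertainty.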

How the data were processed

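Poly(A) RNA of frozen esophagi was sequenced by a service provider in 4 MGL KO and 4 WT libraries, on a pair of Illumina NovaSeq models with no model given per library. Per the submitters' processing notes and the methods, the authors checked reads with FastQC 0.11.9, trimmed adapters with Cutadapt, aligned to GRCm39 with STAR 2.7.10b, and deposited whole-number counts per gene symbol without normalization. The annotation, the counting tool and its use of strand are not given in the sources used here.

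Groups and replicate numbers came from the sample labels. Genes were kept with filterByExpr (minimum count 10) in edgeR 4.0.16 (R 4.3.3), which left 14864 of 22721 symbols with a count and 98.1% to 99.9% of the counts of a library. CPM used TMM factors. The genotype test was edgeR's quasi-likelihood fit, adjusted by Benjamini-Hochberg over all genes tested at a threshold of 0.05. SEs were derived from each log2 fold change and its F statistic. Log2 CPM used a prior count of 1. The exact test, which the methods name, was run as an alternative, as were DESeq2 1.42.0, limma-voom (limma 3.58.1), other scalings, filters, covariates, the replicate block and each library left out. Per-kb levels used canonical transcript lengths from GENCODE mouse release M39 (93.6% of symbols matched), chosen after the data were seen. Tested on simulated data for this comparison (14713 genes, 50 changed at each size), the test recovered 39 and 43 of 50 genes at log2 changes of -2 and 2 and 18 and 22 of 50 at -1 and 1, with 5 false calls in all. Deposited totals lay between 13479069 and 17090152 counts.

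The members and the gene lists (other glycogen genes, other glycolytic enzymes, glucose and lactate handling, hypoxia response, contractile and slow muscle, smooth muscle, squamous epithelium, adipocytes, airway ciliated cells, Y-linked genes) were chosen with earlier results of these data known. Named were the members, isoforms of their enzymes, genes of a pathway list whose libraries did not overlap between genotypes (up to 4 per list), the most abundant gene of each marker list, Mgll, and the genes nearest to each member. Phka1, Phkb, Gpi1, Tpi1, Pgk1 and Slc2a4 were added for their roles, and Tnnc2, Myl2, Myh4, Myh7, Ero1a, Plin4 and Adipoq after their values were seen. Pdk4 was named outside these rules, as the gene with the highest mean of its pathway list. Set tests were not run.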

Additional observations from a re-analysis of the deposited data

Results flagged for a closer look

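In all, 5 values stood apart from the other 3 libraries of their group by Dixon's criterion, of 80 groups of 4 examined, where chance gives about 4. Phkg1 was at 133.5 CPM in WT replicate 3 against 90.1 CPM in the nearest WT library, and its share of the phosphorylase kinase catalytic subunits there was 84.3% against 78.1%. Relative to the contractile muscle level, Aldoa lay 2.65 higher on the log2 scale in MGL KO replicate 2 against 1.92 in the nearest MGL KO library, and Gapdh 2.25 against 1.78. The airway ciliated genes summed to 878.1 CPM in MGL KO replicate 4 against 25.2 CPM in the nearest MGL KO library. No cause was tested for these values.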

How the results depend on the processing

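The number of members called was 0 under all 21 alternatives, and their lowest adjusted p lay between 0.456 (muscle covariate) and 1. The number of calls among all genes tested, 7 in the main test, was 64 by the exact test on filtered genes, 42 by the same test on unfiltered genes, 137 by DESeq2, 25 by limma-voom with quality weights, 23 with the muscle covariate, 3 with the Y-linked covariate, and 2 each with the robust fit, without the filter and with the replicate block. Leaving out 1 library gave 2 to 5. Of the other pathway genes, DESeq2 called 2. The members' median log2 fold change of 0.02 ran from -0.25 (without MGL KO replicate 2) to 0.17 (MGL KO replicate 4 left out). In the former case the members lay between -0.40 for Pgam2 and -0.09 for Hk2. Those that changed sign by more than their SE in the main test were Aldoa (-0.33), Gapdh (-0.34), Pgam2 and Ldha (-0.22). With union exon lengths in place of canonical transcripts, the MGL KO minus WT difference in the Pkm share was -0.832 percentage points in place of -0.17. The Hk2 share difference of 0.90 percentage points became -2.83 without MGL KO replicate 2 and 5.14 with replicate 4 left out, and that of Phkg1, 1.05, became -1.69 and 3.19. Same-numbered libraries did not deviate together (correlations -0.137, -0.28, -0.142 and 0.079), so the replicate block, under which the members' median was -0.04 and 0 members were called, pairs only numbers. Except where a value is given here, the cause of a change was not tested. At this depth counting error was small beside the spread between libraries: the least abundant member had at least 1307 counts, and 4 libraries a group left intervals reaching a fold of 2.05.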
